A study of Homo sapiens with 8 samples.

Results

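The dual specificity phosphatases that act on MAP kinases were followed in MCF10A cells, a non-tumorigenic human mammary epithelial line, on 8 single-colour Agilent arrays. The 10 genes are DUSP1, DUSP2, DUSP4, DUSP5, DUSP6, DUSP7, DUSP8, DUSP10, DUSP14 and DUSP16, chosen by name out of 20296 genes with a named probe. All 10 were matched through the RefSeq transcript accession of their probes. Where a gene had several probes, the probe of highest mean signal was used. The p53+/+ cells and the p53-/- cells, which lack p53, were each profiled untreated (0 h) and at 12, 24 and 48 h after ADR (adriamycin, also called doxorubicin), a drug that breaks DNA. Per the labels, ADR was given at 0.5 µg/ml for 2 h to cells plated a day earlier, whereas the methods of the study state a higher concentration. Each genotype and time had 1 array, so the values have no replicate error. Whether the p53-/- line is 1 clone is not given in the sources used here.

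MAP kinases (the ERK, JNK and p38 kinases) are switched on when a kinase phosphorylates a threonine and a tyrosine in their activation loop. The dual specificity phosphatases remove both phosphates and so switch the kinases off. Many of these phosphatases are made in response to the signal they end, which forms a feedback loop. DUSP1, DUSP2, DUSP4 and DUSP5 are nuclear enzymes, DUSP6 and DUSP7 are cytoplasmic and prefer ERK, and DUSP8, DUSP10 and DUSP16 prefer JNK and p38. DUSP14 is a small member without the kinase-binding domain of the others.

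The DNA just before the gene start is shown for some of the genes. RefSeq (GRCh38.p14) gave 9 promoter entries for 8 of the 10 genes, of which DUSP10 has 2. DUSP4 and DUSP5 had no entry in the reference used, so neither was searched for motifs. The 250 bases before the start are printed in full, 5′ to 3′ on the gene's strand, for DUSP14 and DUSP10, which differed in opposite directions between the treated genotypes. DUSP1 and DUSP8 are printed because they hold TGACGTCA, the palindromic element that CREB and ATF proteins bind. Capitals mark TGACGTCA and, in DUSP1, the TATA box motif TATAAA. The stretches are chr17:37489641-37489890 on the plus strand for DUSP14, chr1:221742090-221742339 on the minus strand for DUSP10, chr5:172771196-172771445 on the minus strand for DUSP1 and chr11:1572272-1572521 on the minus strand for DUSP8.
DUSP14: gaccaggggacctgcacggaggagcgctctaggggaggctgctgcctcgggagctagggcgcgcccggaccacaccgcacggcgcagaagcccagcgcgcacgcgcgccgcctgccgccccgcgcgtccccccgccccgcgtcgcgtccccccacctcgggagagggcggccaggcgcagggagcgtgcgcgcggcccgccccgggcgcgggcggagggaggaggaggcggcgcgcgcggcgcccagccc
DUSP10: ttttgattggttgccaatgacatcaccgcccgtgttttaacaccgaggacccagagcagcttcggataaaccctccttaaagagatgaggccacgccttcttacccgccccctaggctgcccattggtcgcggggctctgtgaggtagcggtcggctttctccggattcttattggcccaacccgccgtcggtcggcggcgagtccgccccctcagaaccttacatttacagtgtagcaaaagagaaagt
DUSP1: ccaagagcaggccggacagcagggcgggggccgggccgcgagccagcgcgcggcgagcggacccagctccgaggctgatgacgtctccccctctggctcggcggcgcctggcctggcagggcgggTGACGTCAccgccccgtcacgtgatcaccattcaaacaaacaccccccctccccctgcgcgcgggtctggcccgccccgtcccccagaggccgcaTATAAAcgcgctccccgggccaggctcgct
DUSP8: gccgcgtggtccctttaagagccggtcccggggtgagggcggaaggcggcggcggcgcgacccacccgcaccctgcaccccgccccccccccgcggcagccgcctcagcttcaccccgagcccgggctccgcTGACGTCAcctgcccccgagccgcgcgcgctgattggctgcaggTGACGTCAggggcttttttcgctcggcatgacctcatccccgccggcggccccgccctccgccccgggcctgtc
Of 35116 promoter stretches of this length, 1.65% held TGACGTCA. DUSP1 had 1 copy, beginning 125 bases before the start, and DUSP8 had 2 copies, beginning 118 and 74 bases before it. TATAAA stood in 10.7% of all stretches and, among the members, in that of DUSP1, beginning 30 bases before the start. The AP-1 letters TGANTCA (6.57% of all) and the serum response CArG box (1.16%) were in none of the 9 stretches. The p53 half-site pattern, searched because the cells differ in p53, was in 5.57% of all stretches and in that of DUSP7 among the members, and the letters it calls for did not occur in those of DUSP14 and DUSP10. Both strands were searched for each motif. The G and C content was 82.8% in the DUSP14 stretch and 56.4% in the DUSP10 stretch, beside a median of 58.0% over all stretches.

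The labels were checked before any comparison. The p53 targets CDKN1A and MDM2 were 9.93-fold (adjusted p = 0.00045) and 8.90-fold higher (adjusted p = 0.00095) in treated p53+/+ than in treated p53-/- cells by the limma test described below. At 0 h the log2 level of CDKN1A was -1.14 on the array labelled p53+/+ and -2.97 on the p53-/- array. MDM2 went the other way at 0 h, with -1.66 and -1.33. Some cell identity markers split the arrays too, with the array labelled p53+/+ 0 h on the side of the p53-/- arrays. The epithelial adhesion gene CDH1 lay between -3.55 and -0.94 on the p53-/- arrays, -3.13 for the array labelled p53+/+ 0 h, and between 1.42 and 2.10 in treated p53+/+ cells. DCN, a fibroblast marker, was at 5.70 or above on the p53-/- arrays and the array labelled p53+/+ 0 h, and at 2.09 to 2.37 on the treated p53+/+ arrays. The fibroblast gene COL1A1 was well above background on the p53-/- arrays and the array labelled p53+/+ 0 h only. PDGFRB, another fibroblast gene, did not place that array with the p53-/- arrays. It was well above background only on the p53-/- 0, 12 and 24 h arrays (-4.03, -4.88 and -4.84). Of the markers set for each type, 5 of 6 mammary basal epithelial, 1 of 4 fibroblast, 1 of 3 leukocyte and 1 of 2 endothelial genes stood well above background throughout the 8 arrays, and the fibroblast gene COL1A2 was on none. PECAM1 lay between -2.39 and -1.59 on the p53-/- arrays and the array labelled p53+/+ 0 h, and was not well above background on the treated p53+/+ arrays. The part of these marker differences, and of the doubt about the array labelled p53+/+ 0 h, in the results on the phosphatases was not tested. In RNA of whole cultures, fewer cells of a kind and less RNA per cell cannot be told apart. All 8 arrays were on 1 slide with each genotype in a column of its own, so that column and genotype cannot be told apart.

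The level of a gene is given as log2 of the scanner's processed signal minus log2 of the 75th percentile of the array, so 0 is the signal at that percentile. Levels of different genes come from different probes and are not comparable with each other. The technical SD of a single level, from probes printed in 10 spots, was between 0.019 and 0.13 for the 10 genes. All 10 were well above background on all 8 arrays. DUSP2, DUSP7 and DUSP16 were dim, with processed signals of at most 152.8, 66.8 and 93.7. The lowest signal well above background was between 23.1 and 35.9, by array.

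DUSP5, the nuclear phosphatase that acts on ERK, had the widest range of levels of the 10 genes, 3.51 on the log2 scale. In p53-/- cells its log2 level (probe for NM_004419) was -2.21 at 0 h, -0.91 at 12 h, -0.73 at 24 h and -0.11 at 48 h. The array labelled p53+/+ 0 h read -0.18, before 1.12, 1.29 and 0.87 at 12, 24 and 48 h in treated p53+/+ cells. The treated p53+/+ arrays were all above the p53-/- arrays, and the p53-/- 0 h array was the lowest of the 8. The array labelled p53+/+ 0 h stood near the p53-/- 48 h array.

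DUSP14, the small phosphatase, was the next widest, with a range of 2.44. In p53-/- cells its log2 level (probe for NM_007026) was 1.39, 1.91, 1.97 and 2.37 at 0, 12, 24 and 48 h. The array labelled p53+/+ 0 h read 1.87, followed by 3.40, 3.83 and 3.54 in treated p53+/+ cells. Every treated p53+/+ array was more than 1 log2 unit above the p53-/- array of the same time, and the array labelled p53+/+ 0 h lay among the p53-/- arrays.

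DUSP10, which acts on JNK and p38, ran the other way. Its log2 level (probe for NM_007207) was -0.67, -0.30, -0.16 and -0.55 at 0, 12, 24 and 48 h in p53-/- cells. The array labelled p53+/+ 0 h gave -0.75, and treated p53+/+ cells gave -1.57, -1.80 and -1.82. The treated p53+/+ arrays were the lowest 3 of the 8, and the 0 h arrays of both labels differed by 0.08.

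On the scaled levels DUSP4 and DUSP6 differed most between the genotypes at 48 h. On unscaled signals their log2 differences at 48 h were 0.12 and -0.01. The p53+/+ 48 h array had the lowest 75th percentile (661) and 0 of 10 spike-in probes well above background. DUSP4, a nuclear phosphatase of ERK and JNK, was at 1.82, 1.88, 1.76 and 2.02 in p53-/- cells at 0, 12, 24 and 48 h. The array labelled p53+/+ 0 h read 1.98, and treated p53+/+ cells read 2.16, 2.36 and 3.00. The treated p53+/+ arrays were above all others for DUSP4, 48 h most of all. DUSP6, the cytoplasmic ERK phosphatase, was at 2.65, 2.72, 3.02 and 3.19 in p53-/- cells. Treated p53+/+ cells read 3.15, 3.29 and 4.03, above the 2.46 of the array labelled p53+/+ 0 h. For DUSP6 the treated genotypes overlapped, since the p53-/- 48 h array was above the p53+/+ 12 h array.

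DUSP1 and DUSP2, both known as early response genes, differed between the 0 h arrays more than between the treated ones. DUSP1 was at 4.52, 3.43, 3.92 and 3.80 in p53-/- cells at 0, 12, 24 and 48 h. Treated p53+/+ cells read 3.40, 3.73 and 3.99, close to the 3.49 of the array labelled p53+/+ 0 h. The p53-/- 0 h array was the highest of the 8 for DUSP1, and the treated genotypes overlapped. DUSP2 was at -4.36, -3.63, -3.64 and -3.02 in p53-/- cells. Treated p53+/+ cells read -2.79, -3.45 and -2.86, and the array labelled p53+/+ 0 h read -2.73. The p53-/- 0 h array was the lowest of the 8 for DUSP2, and the treated genotypes overlapped here too.

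The remaining genes, DUSP7, DUSP8 and DUSP16, covered ranges of 1.24, 1.29 and 1.50 on the log2 scale. DUSP7, the relative of DUSP6, ranged from -4.73 to -3.49, with the 4 p53-/- arrays below the 4 labelled p53+/+. Before scaling they overlapped, with DUSP7 signals of 41.5 to 57.0 on p53-/- arrays and 48.7 to 66.8 on those labelled p53+/+. DUSP8 was at -0.15, -0.43, -0.86 and -0.60 in p53-/- cells at 0, 12, 24 and 48 h. The array labelled p53+/+ 0 h read -0.04, before -0.21, -0.09 and 0.44 in treated p53+/+ cells. The treated genotypes did not overlap for DUSP8 on this probe. A dimmer DUSP8 probe lay between -3.25 and -2.79 on the 8 arrays, and the third DUSP8 probe was not well above background on any. DUSP16, a phosphatase of JNK and p38, ranged from -4.78 on the p53-/- 0 h array to -3.28 on the p53+/+ 48 h array, and the treated genotypes overlapped.

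**Figure D1:**
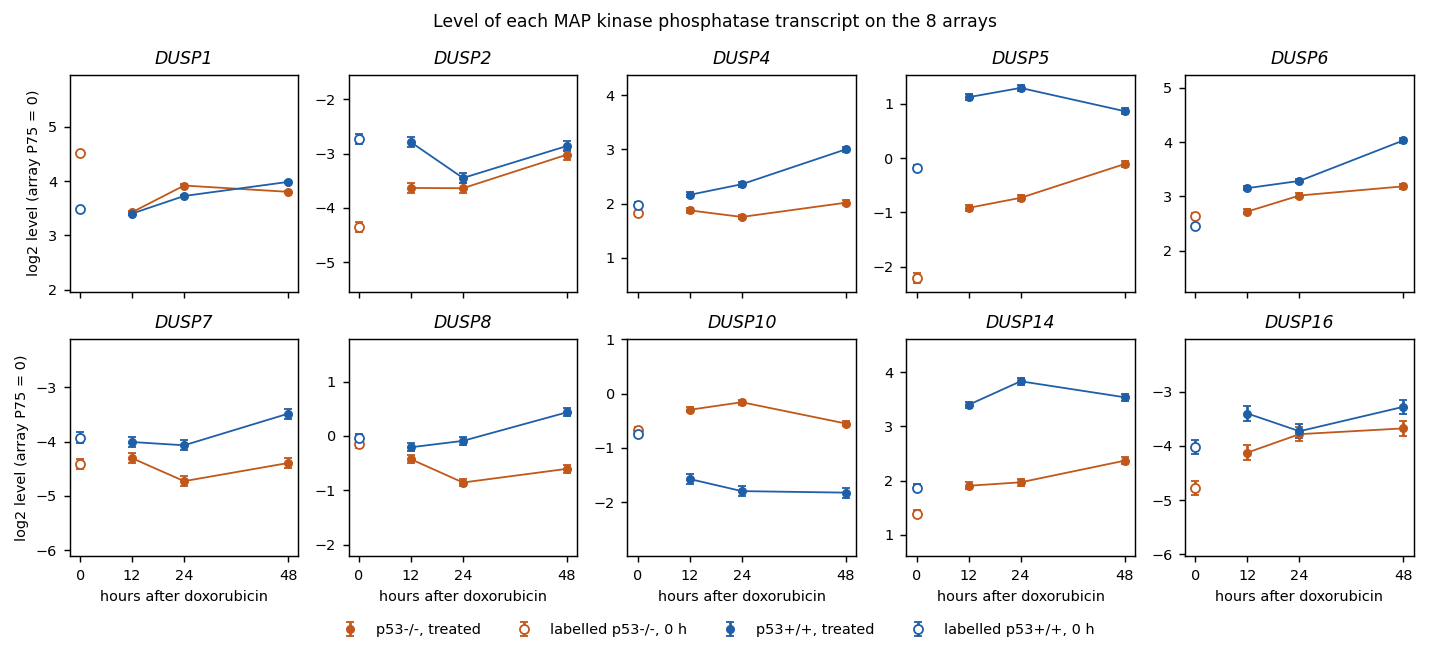
Log2 level (y axis, 75th percentile of the array = 0, each panel spanning 4 log2 units) of the 10 phosphatase transcripts against hours after doxorubicin (x axis), 1 array per point. Filled points are treated cells, open points the arrays labelled 0 h, error bars the technical SD. DUSP5 and DUSP14 lie higher and DUSP10 lower on the 3 treated p53+/+ arrays than on the p53-/- arrays.

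Setting treated p53+/+ cells against treated p53-/- cells asks which phosphatase transcripts differ between the treated genotypes, and it needs no 0 h array. These arrays also differ in CDH1, DCN and PECAM1 and in slide column, so the part of p53 cannot be told apart. Without a 0 h array, a response to ADR and a difference already present before it cannot be told apart either. The comparison was tested with limma over the 6 treated arrays, with the Benjamini-Hochberg adjusted p under 0.05. The test covered the 28947 probes that rose well above background somewhere (on at least 1 array). The 3 times stand in for replicates, so the test sets the genotype difference against the movement over time. DUSP5 and DUSP14 were higher and DUSP10 lower in treated p53+/+ cells, 3 of the 10 genes. Over all probes 10.6% were called higher, 7.4% lower and 18.0% in either direction, so 3 of 10 is to be read against a background that is itself large. At an unadjusted p under 0.05 the counts were 6 of 10 members and 34.0% of all probes. The median log2 difference was 0.57 over the 10 genes and 0.09 over all probes.

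DUSP5 was 4.11-fold higher in p53+/+ than in p53-/- cells at 12 h, 4.07-fold at 24 h and 1.96-fold at 48 h. The limma estimate was 1.68 ± 0.27 on the log2 scale (SE), or 3.20-fold (adjusted p = 0.0093). It missed the threshold without the 12 h arrays (1.50, adjusted p = 0.063) and without the 24 h arrays (1.51, adjusted p = 0.16). On unscaled signals the DUSP5 difference at 48 h was 0.12 on the log2 scale.

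DUSP14 was 2.81-fold, 3.63-fold and 2.25-fold higher at 12, 24 and 48 h, with a limma estimate of 1.51 ± 0.22 (SE), or 2.84-fold (adjusted p = 0.0070). Without the 24 h arrays the estimate was 1.33 (adjusted p = 0.14). On unscaled signals the log2 differences of DUSP14 were 1.04, 1.38 and 0.31 at the 3 times.

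DUSP10 was lower in p53+/+ cells by 2.42-fold at 12 h, 3.11-fold at 24 h and 2.42-fold at 48 h. The limma estimate was -1.40 ± 0.19 (SE), a 2.63-fold difference (adjusted p = 0.0059). It missed the threshold without the 24 h arrays (-1.27, adjusted p = 0.14), and on unscaled signals the log2 differences were -1.73, -2.12 and -2.13. DUSP10 thus pointed down and DUSP14 up on both scales.

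The other 7 genes did not pass. DUSP8 (log2 estimate 0.68, adjusted p = 0.10), DUSP4 (0.62, adjusted p = 0.14) and DUSP7 (0.62, adjusted p = 0.12) were higher in p53+/+ cells at each of the 3 times, with differences that were larger at 48 h (1.04, 0.98 and 0.91) than at 12 h (0.22, 0.29 and 0.30). The dimmer DUSP8 probe gave 0.27 (adjusted p = 0.36). DUSP6, DUSP2 and DUSP16 had estimates of 0.52, 0.40 and 0.39 with adjusted p of 0.25, 0.36 and 0.26. DUSP1 stood at -0.01 ± 0.24 (SE, adjusted p = 0.98). These p-values do not show that the genotypes are alike. On unscaled signals DUSP2, DUSP6 and DUSP16 had estimates below 0, down to -0.21, and DUSP1 gave -0.61. Those of DUSP8, DUSP4 and DUSP7 were 0.08, 0.03 and 0.02, and their 12 h differences turned negative (-0.23, -0.17 and -0.15). With normexp background correction DUSP7, DUSP8 and DUSP16 also passed (log2 estimates 0.65, 0.61 and 0.49).

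By size, DUSP14 was higher and DUSP10 lower by at least 2-fold at all 3 times, beside 6.75% of 15811 genes higher and 5.92% lower. DUSP5 missed this rule at 48 h (0.97 on the log2 scale). On the scaled levels the treated genotypes did not overlap for DUSP10, with p53+/+ lower, and for 5 genes with p53+/+ higher. These 5 were DUSP4, DUSP5, DUSP7, DUSP8 and DUSP14. Over all genes, 24.6% were separated with p53+/+ higher and 19.9% with p53+/+ lower.

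**Figure D2:**
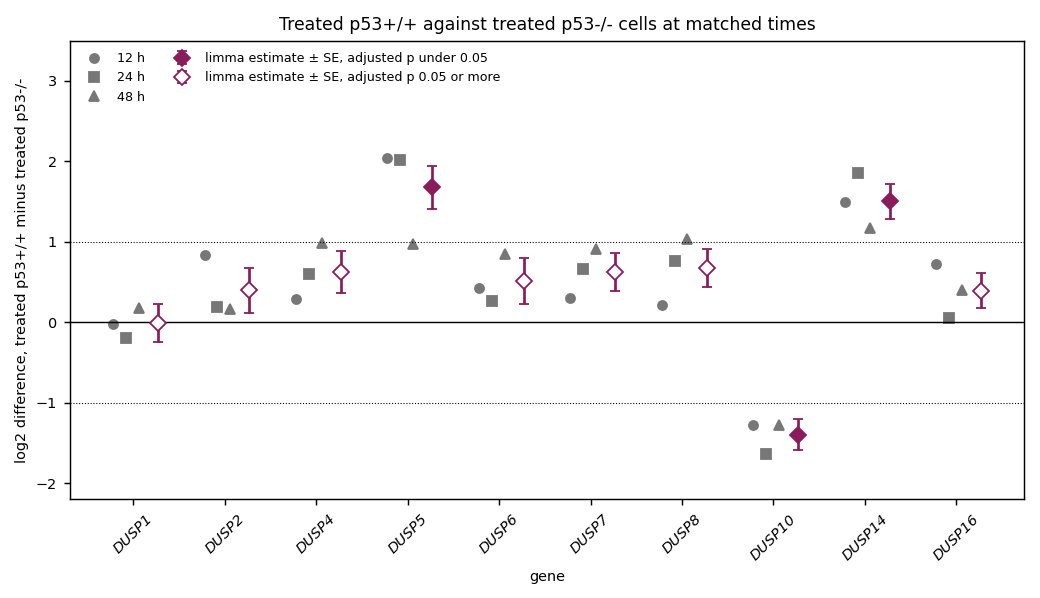
Log2 difference (y axis) between treated p53+/+ and treated p53-/- cells for each phosphatase gene (x axis), with grey symbols for the 12, 24 and 48 h arrays and a diamond for the limma estimate ± SE, filled where the adjusted p was under 0.05. Dotted lines mark a 2-fold difference. DUSP5 (1.68) and DUSP14 (1.51) lie above the upper line and DUSP10 (-1.40) below the lower line.

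The time course in p53-/- cells follows these transcripts after ADR without p53. In both genotypes the untreated cells were profiled at 0 h only, so ADR and time in culture cannot be told apart. DUSP5 was the single member that rose at least 2-fold at all 3 times, by 1.30, 1.48 and 2.11 on the log2 scale at 12, 24 and 48 h, and no member fell by that rule. Over all genes 3.21% rose and 2.04% fell. DUSP5 no longer passed with normexp, and DUSP2 and DUSP16 passed with it on unscaled signals. At 12 h DUSP1 was down by more than 2-fold (-1.09), where 5.62% of genes were, and it stood at -0.60 and -0.72 at 24 and 48 h. At 48 h DUSP2 (1.34) and DUSP16 (1.10) were up with DUSP5, where 14.9% of genes were. DUSP14 gave 0.51, 0.58 and 0.97, and DUSP10 gave 0.37, 0.51 and 0.12. With 1 array per time these are sizes without a test.

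The time course in p53+/+ cells rests on the array labelled p53+/+ 0 h, where CDH1, DCN and PECAM1 lay with the p53-/- arrays. The changes were therefore also taken from the p53-/- 0 h array. The 2 sets of changes share their treated arrays. From the array labelled p53+/+ 0 h, DUSP5 (1.30, 1.47 and 1.04 at 12, 24 and 48 h) and DUSP14 (1.52, 1.96 and 1.66) rose at least 2-fold at all 3 times, where 9.53% of genes rose and 6.39% fell. From the p53-/- 0 h array, DUSP5 gave 3.34, 3.51 and 3.08, DUSP14 gave 2.00, 2.44 and 2.14, and DUSP16 also passed with 1.37, 1.05 and 1.50, where 9.55% of genes rose and 6.79% fell. DUSP5 and DUSP14 were therefore at least 2-fold above either 0 h array at all 3 times. The size for DUSP5 differed by the 4.10-fold gap between the arrays at 0 h. A difference from the p53-/- 0 h array also holds the difference between genotypes, so it is not a change within p53+/+ cells. From the array labelled p53+/+ 0 h, DUSP5 no longer passed at all 3 times with median scaling, quantile normalization, normexp or no scaling, while DUSP14 did. On unscaled signals DUSP10 passed as lower in place of DUSP5, where 6.25% of genes rose and 12.4% fell.

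From the array labelled p53+/+ 0 h, DUSP10 fell at least 2-fold at 24 h (-1.05), where 14.3% of genes fell, and at 48 h (-1.08), where 12.3% fell, with -0.83 at 12 h, and gave -0.90, -1.13 and -1.15 from the p53-/- 0 h array. DUSP4 (1.02) and DUSP6 (1.57) rose at 48 h from the array labelled p53+/+ 0 h, where 19.0% of genes rose, and gave 1.18 and 1.39 from the p53-/- 0 h array. DUSP2 depended on the baseline. It was at -0.06, -0.72 and -0.13 from the array labelled p53+/+ 0 h and at 1.57, 0.91 and 1.50 from the p53-/- 0 h array. DUSP1 likewise gave -0.09, 0.24 and 0.50 from the former and -1.12, -0.80 and -0.54 from the latter.

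**Figure D3:**
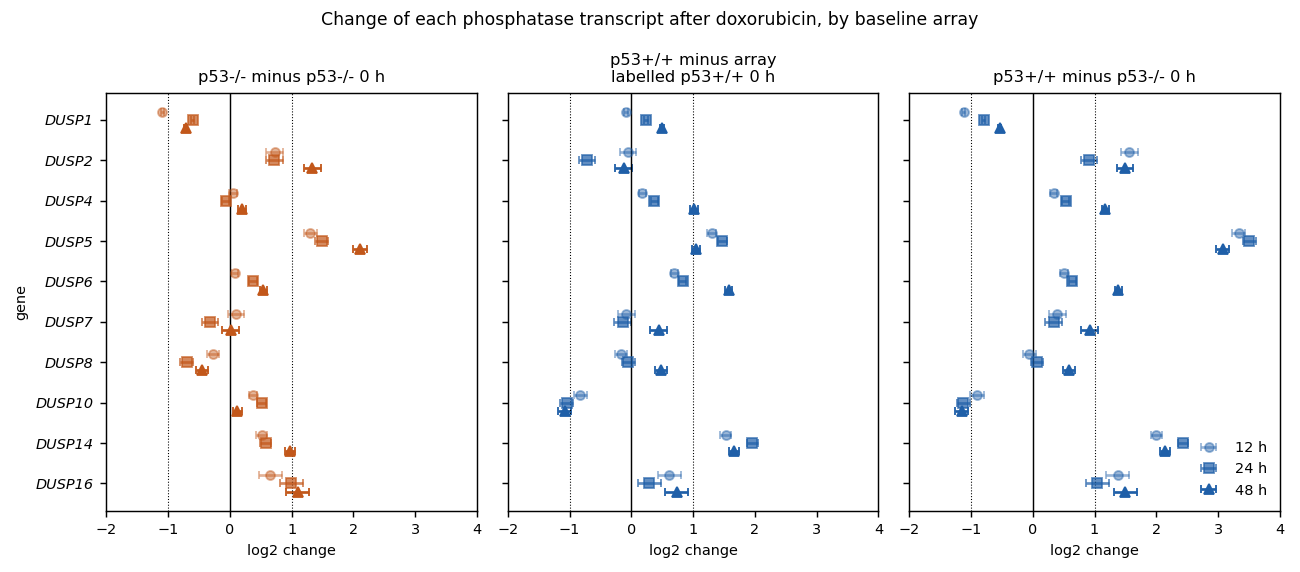
Log2 change (x axis) of each phosphatase gene (y axis) at 12, 24 and 48 h, for p53-/- cells from p53-/- 0 h, p53+/+ cells from the array labelled p53+/+ 0 h, and p53+/+ cells from p53-/- 0 h. Error bars are the technical SD and dotted lines a 2-fold change. DUSP5 is past 2-fold at every time in all 3 panels, DUSP14 in the panels of p53+/+ cells, and DUSP2 changes side with the baseline.

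The arrays at 0 h differed by at least 2-fold for 3 members. DUSP2 (1.62) and DUSP5 (2.03) were higher and DUSP1 (-1.03) lower on the array labelled p53+/+ 0 h than on the p53-/- 0 h array, where 4.25% of genes were higher and 5.38% lower. The other 7 genes differed by -0.19 (DUSP6) to 0.76 (DUSP16).

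Whether the change from 0 h differed between genotypes was tested with the limma interaction of genotype and treatment over the 8 arrays. None of the 10 genes passed, where 1.69% of probes did, and 1 of 10 had an unadjusted p under 0.05 in the limma fit, beside 17.1% of all probes. That gene was DUSP10, with an interaction of -1.32 ± 0.39 (SE, adjusted p = 0.15). DUSP14 (1.03, adjusted p = 0.30), DUSP1 (1.02, adjusted p = 0.33), DUSP2 (-1.23, adjusted p = 0.33) and DUSP5 (-0.36, adjusted p = 0.78) did not pass. On unscaled signals the DUSP10 interaction was -2.12 (adjusted p = 0.048). The test rests on 1 untreated array per genotype.

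The rest of the pathway was followed through lists of genes, named by the size of the treated difference. Among the other dual specificity phosphatases, 11 of 14 reached above background on at least 1 array (DUSP13 and DUSP27 were not matched and DUSP21 was not above it), and DUSP12 (-0.71, adjusted p = 0.038), lower in p53+/+ cells, was the single gene called. The list median was -0.13, below the 0.57 of the 10 members and the 0.09 of all probes. DUSP23 (-1.08, adjusted p = 0.061) and DUSP3 (0.82, adjusted p = 0.064), a phosphatase of ERK and JNK, did not pass. DUSP9, the close relative of DUSP6 and DUSP7, stood at 0.19 (adjusted p = 0.58). DUSP19 was well above background only on the p53-/- 24 h and 48 h arrays.

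Among 6 other phosphatases of MAP kinases, 2 were higher in treated p53+/+ cells and none lower, with a median of 0.12. PPM1D, which dephosphorylates p38 and is a known p53 target, was at -1.15, -0.59, -0.39 and -0.47 in p53-/- cells, -0.69 for the array labelled p53+/+ 0 h, and 1.24, 1.54 and 0.93 in treated p53+/+ cells. Its difference was 3.30-fold (adjusted p = 0.0041), and PPM1A, which also acts on p38, was 1.71-fold higher (adjusted p = 0.040). PTPRR, a tyrosine phosphatase of ERK, was well above background only on the p53-/- 24 h (-4.46) and 48 h (-2.29) arrays (adjusted p = 0.28).

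Of 10 MAP kinases, 9 were well above background on at least 1 array (MAPK10 was not), and MAPK13 was the single gene called, with a list median of 0.37. MAPK13, the p38 delta kinase, was between -3.43 and -2.40 in p53-/- cells, -2.99 for the array labelled p53+/+ 0 h, and 1.42, 1.80 and 0.99 in treated p53+/+ cells. This was a 20.4-fold difference (adjusted p = 0.00087), and the treated p53+/+ arrays stood clear of the other 5. MAPK12, the p38 gamma kinase, was at -1.98, -2.21, -2.84 and -3.95 in p53-/- cells, at -2.06 and -4.03 on the p53+/+ arrays labelled 0 h and 12 h, and not well above background on the p53+/+ 24 h and 48 h arrays. MAPK3, which encodes ERK1, stood at -0.65 (adjusted p = 0.19).

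Of 7 MAP kinase kinases, MAP2K4 (2.61-fold, adjusted p = 0.012), which activates JNK, and MAP2K3 (2.16-fold, adjusted p = 0.019), which activates p38, were higher in treated p53+/+ cells and none was lower. MAP2K5, the kinase of the ERK5 branch, stood at 0.52 (adjusted p = 0.16), and the list median was 0.12. MAP2K3 was at 2.55 on the p53-/- 0 h array and at 3.88 on the array labelled p53+/+ 0 h, a gap of the same direction as that of DUSP5.

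Among 15 feedback and output genes of ERK, 4 were higher in treated p53+/+ cells and none lower, with a median of 0.07. SPRY1, a feedback inhibitor of receptor signalling, was 5.21-fold higher (adjusted p = 0.012). The receptor tyrosine kinase EPHA2 was 2.20-fold higher (adjusted p = 0.013) and PHLDA1 2.18-fold higher (adjusted p = 0.035). EGR1, an immediate early transcription factor, was the fourth (1.88-fold, adjusted p = 0.031). Among 10 output genes of p38 and JNK, 3 were higher and 2 lower, with a median of 0.05. The stress response factor ATF3 was 4.08-fold higher (adjusted p = 0.043), GADD45A, a p53 target, was 3.28-fold higher (adjusted p = 0.014) and the p38 substrate kinase MAPKAPK3 was 3.01-fold higher (adjusted p = 0.030). CXCL8, which encodes a chemokine, was not well above background on the treated p53+/+ arrays, so it was at least 2.92-fold lower there. This bound sets the p53-/- mean against the lowest signal well above background on each p53+/+ array. The bound was not tested, and the limma adjusted p of 0.00024 belongs to the fit on the measured signals. GADD45B was 2.63-fold lower (adjusted p = 0.015).

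**Figure D4:**
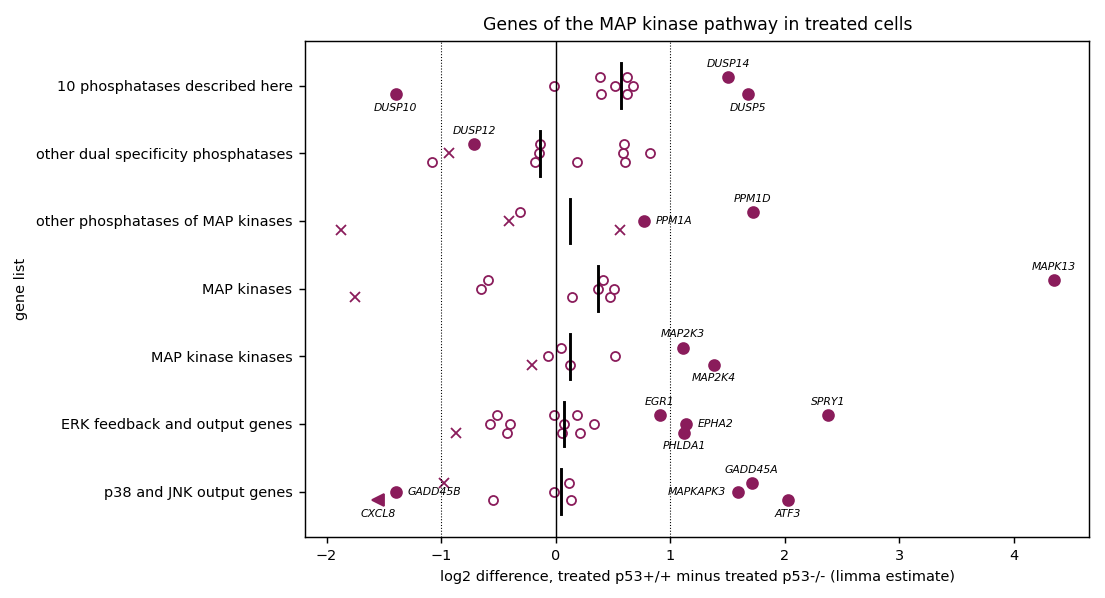
Limma estimate of the log2 difference (x axis) between treated p53+/+ and treated p53-/- cells for the 10 phosphatases and 6 lists of MAP kinase pathway genes (y axis), 1 point per gene, filled and named where the adjusted p was under 0.05. Black bars are list medians and dotted lines a 2-fold difference. Crosses are genes not well above background on every treated array, and the arrow is the bound for CXCL8, which differed by at least that much. MAPK13 (4.35) has the largest estimate among the filled points, and the bars of the 6 lists lie between -0.13 and 0.37.

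The genes whose levels ran most like DUSP5 and DUSP14, the members of widest range, were found by Pearson r over the 8 arrays among 11828 genes well above background on all of them. For DUSP5 they were EPHA2 (r = 0.986), PRPSAP2 (0.986) and ANKRD33B (0.985), and for DUSP14 they included ZMYND15 (0.993) and PGF (0.992). EPHA2 was at 0.07 on the p53-/- 0 h array, 1.42 for the array labelled p53+/+ 0 h, and 2.39, 2.68 and 2.31 in treated p53+/+ cells. On these arrays its order was that of DUSP5. The p53-/- 12 h and 24 h arrays differed in order, with 1.33 and 1.15 for EPHA2 and -0.91 and -0.73 for DUSP5. The 8 points share the slide and the scaling and fall into a few steps, so these values describe likeness and carry no test.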

How the data were processed

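RNA of 8 cultures of MCF10A cells was measured on 8 single-colour (Cy3) arrays. The authors deposited the scanner output of Agilent Feature Extraction 10.7.3.1, whose headers name the build hg19. The processed signal is an intensity from which the software had already subtracted background when the authors deposited it, and the deposited table of the series held the same values (503808 of 503808 equal within a relative tolerance of 1e-06). How the authors scaled the arrays is not given in the sources used here. Control spots and spots marked as uneven or as outliers (233 to 370 per array) were left out, and 42391 of 42405 probes remained. Signals were scaled to each array's 75th percentile (661 to 1199), put on the log2 scale and averaged over the spots of a probe. Probe names came from accessions in a RefSeq table of GRCh38.p14, which matched 27227 probes (64.2%). Between 49.8% and 62.9% of probes were well above background, and 6 of 10 spike-in probes were on 7 arrays and 0 on the p53+/+ 48 h array. The number of arrays limits the precision.

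Groups came from the sample labels. A change was called at 2-fold or more, the fold size the study used for RNA sequencing, at each of the 3 treated times, a requirement added here. limma 3.58.1 (R 4.3.3) was fitted on 28947 probes with 4 residual degrees of freedom and tested on simulated data. All members were named, with CDKN1A and MDM2, up to 3 genes of each list by the largest treated difference, and the 3 genes most alike to the 2 members of widest range. DUSP9, DUSP12, EGR1, MAPKAPK3, GADD45B, JUN and the markers named were added after their values were seen. Some genes that these rules cover are not reported here. The members and lists were chosen with earlier results of these data known. The alternatives were median, quantile and no scaling, normexp (offset 50), other filters and probes, a signal floor, a 3-fold rule, 2 of 3 times, a time left out, time as a block, and the p53-/- 0 h baseline. Python 3.11.15, numpy 2.4.6, pandas 2.3.3 and matplotlib 3.10.9 were used.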

Additional observations from a re-analysis of the deposited data

Results flagged for a closer look

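DUSP2 and DUSP10 were singled out because their changes from 0 h had opposite signs in the genotypes at every time. The mean change of DUSP2 was -0.30 in p53+/+ and 0.93 in p53-/- cells, an interaction of -1.23 (limma adjusted p = 0.33). From the p53-/- 0 h array the mean change of DUSP2 in p53+/+ cells was 1.32. The mean change of DUSP10 was -0.98 in p53+/+ and 0.33 in p53-/- cells, an interaction of -1.32 (adjusted p = 0.15), and -1.06 in p53+/+ cells from the p53-/- 0 h array. Neither difference passed the test.

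Opposite signs at every time without a passed interaction were also seen among the 58 genes of the 6 pathway lists. Of these, 10 had an interaction above 0 and 6 below it, so opposite signs were not particular to the members. The share over all genes was not counted. Above 0 were SPRY1 (3.64, adjusted p = 0.089), PHLDA1 (1.81, adjusted p = 0.16), MAPKAPK3 (1.62, adjusted p = 0.33), MAP2K5 (1.53, adjusted p = 0.15), MAP2K4 (1.25, adjusted p = 0.25) and PPM1A (1.14, adjusted p = 0.21), among others. Below 0 were GADD45B (-1.98, adjusted p = 0.12) and JUN (-1.91, adjusted p = 0.20), among others. The interaction itself passed for MAPK13 (4.35, adjusted p = 0.037), MDM2 (3.48, adjusted p = 0.032) and CXCL8 (-5.76, adjusted p = 0.0048). The CXCL8 value includes 3 arrays on which the probe was not well above background, so its size is not a measured change. The part of the array labelled p53+/+ 0 h in these values was not tested.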

How the results depend on the processing

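The genotypes share their times, and with time as a block the treated comparison again called DUSP5 (adjusted p = 0.030), DUSP10 (adjusted p = 0.018) and DUSP14 (adjusted p = 0.021). Of 63 alternative values of the 5 counts of members, 12 moved by more than 1.5 times. The count of members past 2-fold in p53-/- cells went from 1 to 3 on unscaled signals (DUSP2, DUSP5 and DUSP16, where 7.1% of genes rose) and to 0 with normexp background correction or a 3-fold rule (where 1.04% and 0.999% rose). In p53+/+ cells it went from 2 to 1 (DUSP14) with median scaling, quantile normalization or normexp (8.11%, 8.58% and 6.38% of genes rose), and to 0 with a 3-fold rule (5.39%). Between treated genotypes it went from 2 to 1 (DUSP10) without scaling, where 3.4% of genes were higher and 13.6% lower, and to 0 with a 3-fold rule (3.61% and 2.78%). The limma count between treated genotypes went from 3 to 6 with normexp, where 25% of all probes were called higher and 9.09% lower. It went to 0 without the 24 h arrays, where 0.715% of all probes were called higher and 0.294% lower. The interaction count went from 0 to 1 (DUSP10) without scaling, where 3.85% of probes were called lower. The causes were not tested, but leaving out a time leaves fewer arrays. Without the 48 h arrays the treated limma count was 3, where 4.97% of probes were called higher and 3.91% lower. Without the 12 h arrays it was 2, where 5.04% were called higher and 4.18% lower.

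DUSP5 was called in 10 of 12 alternatives (log2 1.08 to 2.03, adjusted p 0.0019 to 0.16), each with the same sign. DUSP14 was called in 11 (0.91 to 1.68, adjusted p 0.00084 to 0.14) and DUSP10 in 11 (-1.99 to -1.15, adjusted p 0.0013 to 0.14), also without a change of sign. The signal floor, the other filters, the mean of all probes and time as a block left these estimates unchanged. Those alternatives could move only the SE and the adjusted p of these genes. The median treated difference of all genes ranged over the 3 times from -0.03 to 0.10 with the scaling used, from -0.76 to -0.37 on unscaled signals and from 0.12 to 0.26 with normexp. Without scaling 4.72% of probes were called higher and 27.7% lower, and with normexp 25% and 9.09%.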
